A study of Mus musculus with 24 samples.

Results

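The cytosolic ribosomal protein genes were followed through the first 3 stages of thymocyte development, with and without a *TLX1* transgene. They were taken by name, as every gene whose symbol begins with Rpl or Rps and a number, without the S6 kinases and the genes named as pseudogenes. On the array, 45 such genes had a probe set (a group of oligonucleotides against 1 transcript) that lists no other gene, 21 of the small and 24 of the large ribosomal subunit, out of 18193 genes with a probe set of their own. Each was read through its brightest probe set over all 24 arrays. *Rps19bp1*, which encodes a protein that binds Rps19, and *Rps4l*, a transcribed pseudogene, also match the pattern and were left out. A further 109 probe sets list a ribosomal protein gene together with other genes, so many members of the ribosome, *Rpl5*, *Rpl10* and *Rpl3* among them, are seen only through probe sets that cannot be given to 1 gene.

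The animals were IgHμ-TLX1Tg Prkdc Scid/Scid mice, called TLX1 here (4 pools), and Prkdc Scid/Scid controls (4 pools), with 2 to 5 mice of 1 sex in a pool, aged 6 to 8 weeks per the labels, on an outbred ICR background per the labels; by the methods the transgene came from a line kept on the CD1 background. Both groups are homozygous for the Scid allele of *Prkdc*, which encodes the DNA repair kinase needed to join antigen receptor gene segments, so that most T and B cells are missing in both. The TLX1 cells also carry the *TLX1* (*HOX11*) transgene, whose IgHμ control region is mainly active in B cells and acts in thymocytes by leaking. CD4 and CD8 double-negative thymocytes of every pool were sorted into DN1 (CD44+ CD25-), DN2 (CD44+ CD25+) and DN3 (CD44- CD25+), and each sort was put on 1 array. The pool is the replicate, so a stage difference is within a pool (n = 8 pools) and a TLX1 difference is between pools (n = 4 against 4).

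The ribosome translates mRNA into protein. Its small subunit decodes the message and its large subunit joins the amino acids, and each core ribosomal protein is needed in about equal number per ribosome. Cells set their supply of these proteins largely by translation, through a pyrimidine tract that opens the mRNA (the 5′ TOP), under control of mTOR. A few ribosomal proteins have paralogs (named with an added l) that are used in particular tissues: Rpl3l in striated muscle, Rpl39l in male germ cells, and Rps27l, whose gene is a p53 target. In the thymus, *Rpl22* is known for its part in the passage of αβ thymocytes beyond DN3, the stage at which Scid thymocytes stop.

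Sequence around the annotated start of transcription is shown for the 8 members that changed from DN1 to DN2 and for 2 bright members that did not pass that test, *Rpl35* and *Rpl38*, since the TOP tract is the feature the family is known to share. Each line gives 30 bases of GRCm38.p6 from RefSeq, 10 before the start and 20 from the start into the first exon. Capitals mark the longest run of C followed by at least 5 letters C or T that begins within 10 bases of the start, and a line without capitals has none. The runs of *Rps27l* and *Rpl39l* end before the annotated start, so a marked run need not lie in the mRNA.
Rps6, chr4:86857348-86857377, minus strand: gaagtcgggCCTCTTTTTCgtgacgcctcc
Rpl14, chr9:120571507-120571536, plus strand: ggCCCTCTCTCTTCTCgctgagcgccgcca
Rps19, chr7:24884582-24884611, plus strand: aatctcgcgagactcgacgcccgacttgtg
Rpl27a, chr7:109519185-109519214, plus strand: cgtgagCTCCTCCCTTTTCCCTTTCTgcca
Rps27l, chr9:66946076-66946105, plus strand: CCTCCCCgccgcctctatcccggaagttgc
Rpl7l1, chr17:46782637-46782666, minus strand: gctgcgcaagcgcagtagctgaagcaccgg
Rpl3l, chr17:24727816-24727845, plus strand: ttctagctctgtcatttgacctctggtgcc
Rpl39l, chr16:10170218-10170247, plus strand: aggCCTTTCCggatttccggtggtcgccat
Rpl35, chr2:39005112-39005141, minus strand: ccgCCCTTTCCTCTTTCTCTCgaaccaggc
Rpl38, chr11:114668570-114668599, plus strand: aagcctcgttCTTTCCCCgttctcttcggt

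Of the 40 members with a window in the RefSeq table, 21 (52.5%) had such a run, against 18.5% of all 32851 windows. On the other strand 2 members (5%) had one, against 21.5% of all windows. The letters CCGGAAG, on either strand of the 300 bases around the start, were found for 19 of the 40 members (47.5%) and in 8.86% of all windows; its reverse complement opens with C and T and can share bases with a pyrimidine run. Changed and unchanged members are found both with a run near the start and without one, as for the changed *Rps19* and the unchanged *Rpl4*. Where a gene has several windows (7 members) the first in the table was used, and a match is a description of the letters only.

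The sorted stages carried the surface marker genes of their gates. *Cd44* signals were 892 to 1913 at DN1, 80.3 to 153 at DN2 and 9.52 to 29.0 at DN3, and *Il2ra* (CD25) rose from 488 to 1171 at DN1 to 4270 to 5518 at DN2. DN1 also held RNA of other cells. The 8 measured markers of NK and innate lymphoid cells summed to a signal of 13657 to 32344 at DN1, 4258 to 5659 at DN2 and 3565 to 5217 at DN3, and all 8 were lower at DN2. The 10 myeloid and dendritic markers summed to 8898 to 22872 at DN1, 1253 to 1667 at DN2 and 694 to 1098 at DN3, and all 10 were lower at DN2. Of the 8 NK markers, 6 had a mean signal under 20 in both genotypes at DN2 and at DN3. B-lineage, erythroid and thymic stromal markers summed to at most 1194 in any group. The share of these cells in the stage differences below was not tested, and in sorted bulk RNA fewer cells of a type and less RNA per cell cannot be told apart. Control pool 3 and TLX1 pool 2 had many cells outside their gates, by the study's own list of the pools, and the lowest sums of NK and of myeloid markers at DN1 within their genotypes.

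The scaling of the arrays matters for this family. The deposited signals were set by the authors to the same trimmed mean on every array, but the median signal of all probe sets fell from DN1 to DN2. Centring each array on its median therefore moved every log2 difference by 0.344 from DN1 to DN2, by -0.153 from DN2 to DN3, by 0.192 from DN1 to DN3, and by 0.102 for TLX1 against control at DN2. Both scalings are given where they differ, and quantile normalization is the third.

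Ribosomal protein probe sets were among the brightest of the array. Of the 45 members, 32 lay in the top 1% of probe sets on each of the 24 arrays, and on 10 arrays a member was the brightest of all. Together the members made up 2.10% to 3.18% of the summed signal of an array. At the other end, *Rps16* had signals of 0.184 to 4.22 and did not enter any test, so 44 members were tested among 27022 probe sets. Its protein is a core part of the small subunit, and its single probe set reads near the floor of the array.

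The median log2 signal over the 45 members was 13.01 ± 0.29 (SD, n = 4 pools) in control DN1, 13.00 ± 0.050 in control DN2 and 13.02 ± 0.19 in control DN3 thymocytes. In TLX1 thymocytes it was 12.82 ± 0.21, 12.82 ± 0.13 and 12.70 ± 0.21. The stages of 1 genotype overlapped. TLX1 pool 4 had the highest median of the TLX1 pools at all 3 stages (13.06, 12.97 and 12.97), and TLX1 pool 1 was lowest at DN1 and DN2 (12.57 and 12.69). Relative to the array median, the level was lowest at DN1 in both genotypes, at 8.61 ± 0.19 in control and 8.39 ± 0.17 in TLX1 cells, and was 8.88 ± 0.17 and 8.80 ± 0.20 at DN2.

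**Figure D1:**
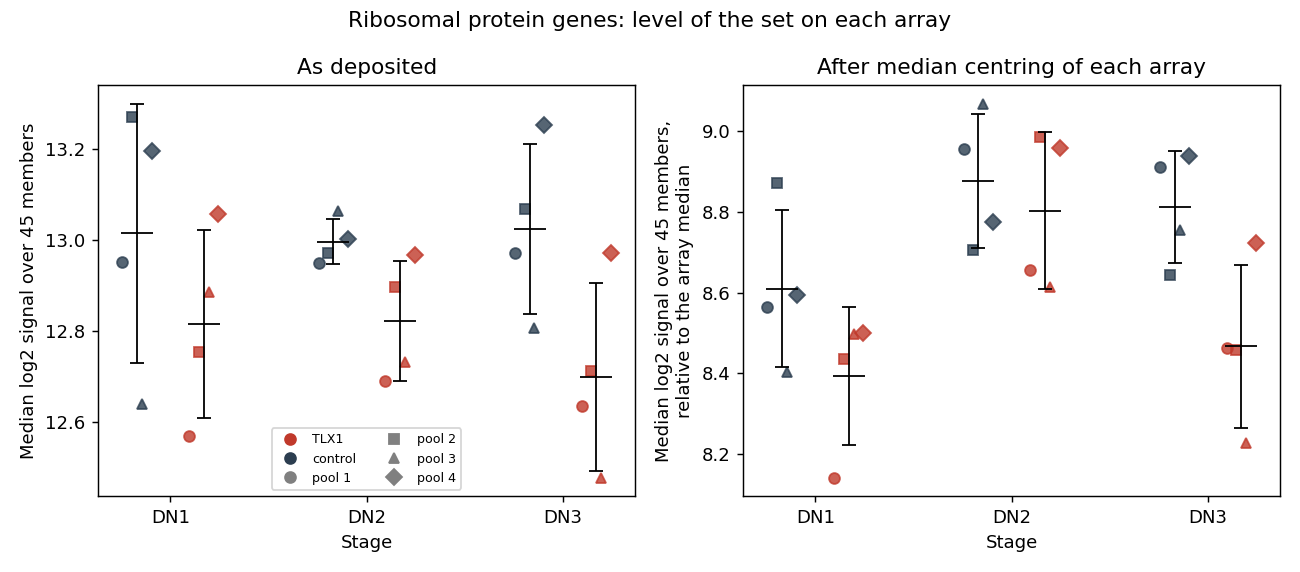
Median log2 MAS5 signal over the 45 members on each of the 24 arrays, by stage (horizontal axis) and genotype (colour), as deposited on the left and relative to the median of the array on the right; symbols are pools, bars are the mean ± SD of 4 pools. As deposited the stages of 1 genotype overlap. After centring DN1 has the lowest mean in both genotypes, and its pools overlap those of DN3.

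From DN1 to DN2, most of the family held its level by the deposited scaling, while most of the array moved. After median centring most members were higher. As deposited, 6 of 44 members were higher at DN2 (*Rpl3l*, *Rpl14*, *Rps27l*, *Rps6*, *Rpl7l1* and *Rps19*) and 2 were lower (*Rpl39l* and *Rpl27a*), at a Benjamini-Hochberg adjusted p under 0.05 over all probe sets. Among all probe sets 28.9% were higher and 31.6% were lower. The median difference of the members was -0.023 (log2) and that of all probe sets -0.058. After median centring 38 members were higher and 1 was lower, where 47.3% of all probe sets were higher and 16.7% lower, and the members' median was 0.32 against 0.29 for all. With quantile normalization 6 members were higher and 2 lower, with a median of 0.024, and the shares of all probe sets were not counted. That scaling gives the brightest ranks of every array the same values. As 32 of the 45 members lie there, it can show little of a shift of the whole family. Between the deposited and the centred scaling the direction of the family as a whole turned, and by both its median lay near that of the whole array.

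The bright members moved together. As deposited, all 33 members with a mean signal of at least 2000 differed by between -0.15 and 0.82, and all but *Rps27l* by no more than *Rps19* (0.20). Of the 1039 probe sets of that brightness on the array, 44.8% were higher and 17.1% lower at DN2. Of the 66 member probe sets of that brightness, 5 (7.58%) were higher and 1 (1.52%) was lower. The match in brightness is loose, since 32 of the 45 members lie in the top 1% of probe sets on every array. Of the 11 tested members below that signal, 4 were higher and 2 lower as deposited. Median centring adds 0.344 to every difference. By that scaling 31 of the 33 bright members were higher and 0 lower, and 7 of the 11 dimmer ones higher and 1 lower. Over all probe sets 47.3% were then higher and 16.7% lower, and the shares by brightness were not counted after centring.

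**Figure D2:**
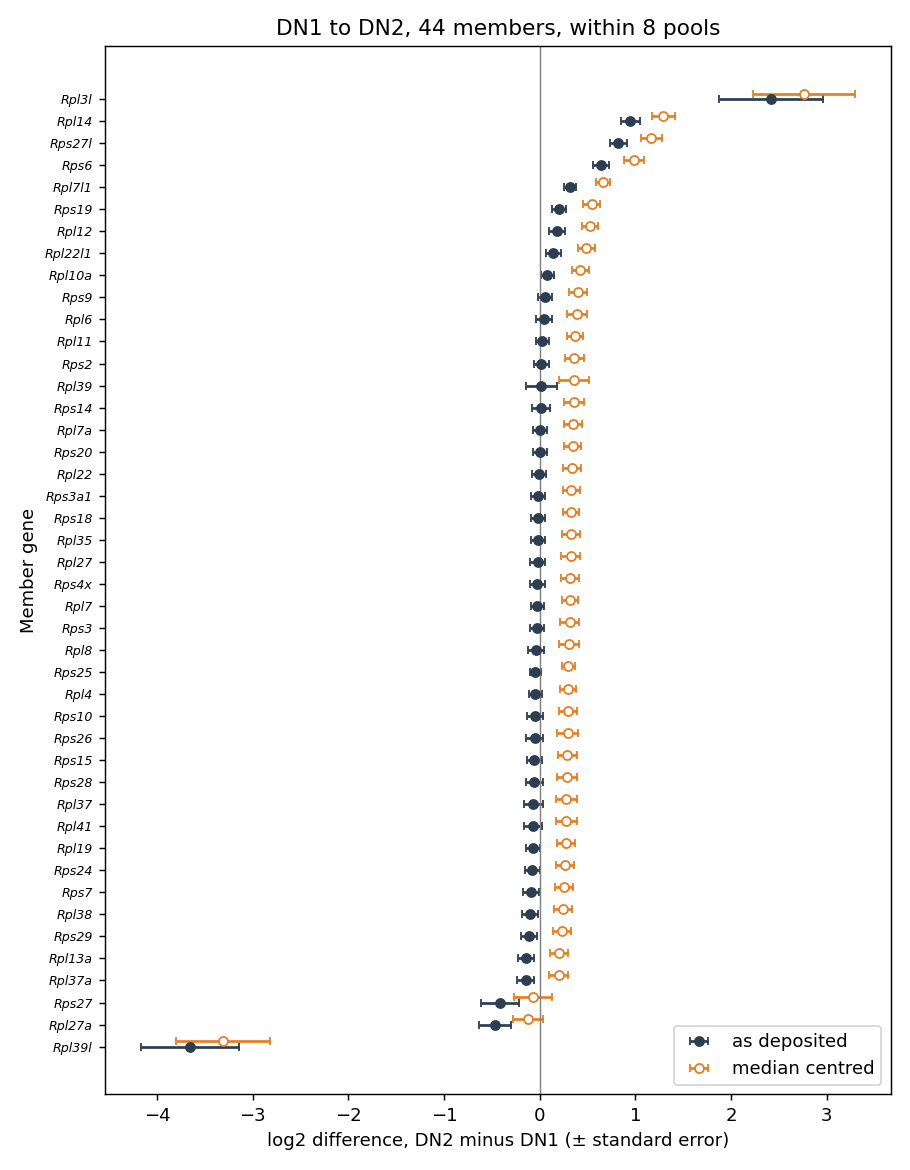
Difference in log2 signal between DN2 and DN1 for each of the 44 tested members (rows), ± standard error, within 8 pools; filled points are the deposited scaling and open points the median-centred one. Most filled points lie near 0 and most open points near 0.32, with *Rpl3l* and *Rpl39l* far from both.

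The paralogs held the largest differences. *Rpl39l* had signals of 141, 45.5, 25.6 and 361 in TLX1 pools 1 to 4 and 278, 295, 140 and 164 in control pools 1 to 4 at DN1. At DN2 they were 9.30, 7.29, 12.0 and 8.56 in TLX1 and 6.54, 7.70, 49.6 and 10.1 in control pools. DN3 signals were 9.92, 25.2, 12.3 and 9.81 in TLX1 and 8.21, 7.84, 67.2 and 12.7 in control pools. The gene was lower at DN2 in all 8 pools, and control pool 3 kept the highest DN2 and DN3 signals. The NK and myeloid markers also fell from DN1 to DN2, and their part was not tested. At DN1, TLX1 pool 3 had the highest NK sum of the TLX1 pools (27691) but their lowest *Rpl39l* signal. TLX1 pool 4 had the highest myeloid sum of the TLX1 pools (22872) and their highest *Rpl39l* signal, while their lowest myeloid sum was in pool 2 (13568). Of the control pools, pool 2 was highest and pool 3 lowest for the NK sum, the myeloid sum and *Rpl39l*. The log2 difference of *Rpl39l* was -3.66 ± 0.51 (SE, adjusted p = 1.2e-05). With an offset of 32 added before the log2, which damps dim signals, it was -2.01 (adjusted p = 6.1e-06). Its parent *Rpl39*, a core protein of the large subunit exit tunnel, had signals of 87.1 to 187 at DN1 and 75.4 to 180 at DN2 and a difference of 0.015 (95% interval -0.32 to 0.36).

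*Rpl3l*, the striated muscle paralog of *Rpl3*, ran the other way at a very low signal. At DN1 it read 1.05 to 19.2, and TLX1 pools 1 and 3 and control pools 2 and 4 lay near the floor of 1 that was set before the log2. At DN2 it read 24.5, 24.8, 17.4 and 12.4, and 25.6, 22.2, 15.6 and 33.0, higher in 8 of 8 pools. The difference of 2.42 ± 0.54 (adjusted p = 0.0011) depends on that floor: with the offset of 32 it was 0.48 (adjusted p = 4.0e-04). At DN3 its signals were 21.8 to 50.5.

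*Rps27l*, the paralog of *Rps27* and a p53 target, changed at a much brighter probe set. Its signals at DN1 were 3133, 4281, 2679 and 2997 in TLX1 and 2772, 3000, 4585 and 2930 in control pools. At DN2 they were 6014, 5509, 5517 and 5653, and 5937, 5017, 6495 and 5698. Every DN2 signal was above every DN1 signal, with a difference of 0.82 ± 0.09 (adjusted p = 7.9e-07), and its other probe sets gave 0.62 and 0.76. *Rps27* itself had signals of 102 to 247 at DN1 and 88.7 to 161 at DN2, a difference of -0.41 ± 0.20 that did not pass the test (adjusted p = 0.085). Parent and paralog thus had values of opposite sign, read through probe sets of unlike brightness.

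*Rpl7l1*, the paralog of *Rpl7*, rose from 588 to 878 at DN1 to 746 to 971 at DN2, in all 8 pools, by 0.32 ± 0.06 (adjusted p = 1.8e-04). Its 2 other probe sets gave 0.17 (adjusted p = 0.060) and 0.35 (adjusted p = 0.0016). *Rpl7* differed by -0.025 (95% interval -0.17 to 0.11). *Rpl22* and its paralog *Rpl22l1*, an RNA-binding pair, differed by -0.0062 (-0.17 to 0.15) and 0.14 (-0.029 to 0.32), and neither passed as deposited. *Rpl22l1* passed after median centring, at 0.49 (adjusted p = 1.7e-04), as did *Rpl22*, at 0.34 (adjusted p = 0.0040).

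Among the core genes, each read through its brightest probe set, *Rpl14* changed most. The only probe set of *Rpl14* was dim (mean signal 312), as was the one read for *Rps6* (mean signal 418). Some dim probe sets of other members, such as *Rps3*, rose where bright ones of the same gene stayed near 0 (below). Whether this holds for *Rpl14* and *Rps6* was not tested. The signals of *Rpl14* were 180, 256, 146 and 178 in TLX1 and 203, 218, 330 and 180 in control pools of DN1 cells. In DN2 cells they were 365, 376, 353 and 457 in TLX1 and 402, 421, 414 and 383 in control pools. The ranges of the stages did not overlap, and the difference was 0.95 ± 0.10 (adjusted p = 5.2e-07). *Rps6*, whose protein is phosphorylated by the S6 kinases, read 304, 367, 277 and 262, and 302, 296, 507 and 245, at DN1. At DN2 it read 485, 459, 417 and 495, and 608, 448, 564 and 444, higher in 8 of 8 pools by 0.64 ± 0.08 (adjusted p = 6.6e-06). With the median over its 2 probe sets, of which the other had a mean signal of 4.30, the difference was 0.18 (adjusted p = 0.62).

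*Rps19*, a small subunit protein mutated in Diamond-Blackfan anaemia, rose by 0.20 ± 0.07 (adjusted p = 0.029), in 7 of 8 pools, from 5106 to 8957 at DN1 to 6418 to 9400 at DN2. The stages overlapped across pools. The call was lost without control pool 1, control pool 3, TLX1 pool 1 or TLX1 pool 2 (adjusted p of 0.051, 0.088, 0.084 and 0.072), and without both pools with many cells outside the gates the difference was 0.11 (adjusted p = 0.20). *Rpl27a* fell in all 8 pools by 0.47 ± 0.17 (adjusted p = 0.025), from 457 to 1023 at DN1 to 403 to 919 at DN2. That call was lost after median centring (-0.12, adjusted p = 0.52) and without control pool 4, TLX1 pool 1 or TLX1 pool 4 (adjusted p of 0.066, 0.063 and 0.055). *Rpl37a* and *Rpl13a*, next in size among lower values, had -0.15 and -0.14 and did not pass; without control pool 3 both passed, at -0.23 and -0.22 (adjusted p = 0.015 and 0.012), and after median centring both were positive, at 0.20. The bright *Rps14*, *Rpl11* and *Rps3* differed by 0.013 (95% interval -0.18 to 0.21), 0.028 (-0.12 to 0.18) and -0.033 (-0.19 to 0.12).

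**Figure D3:**
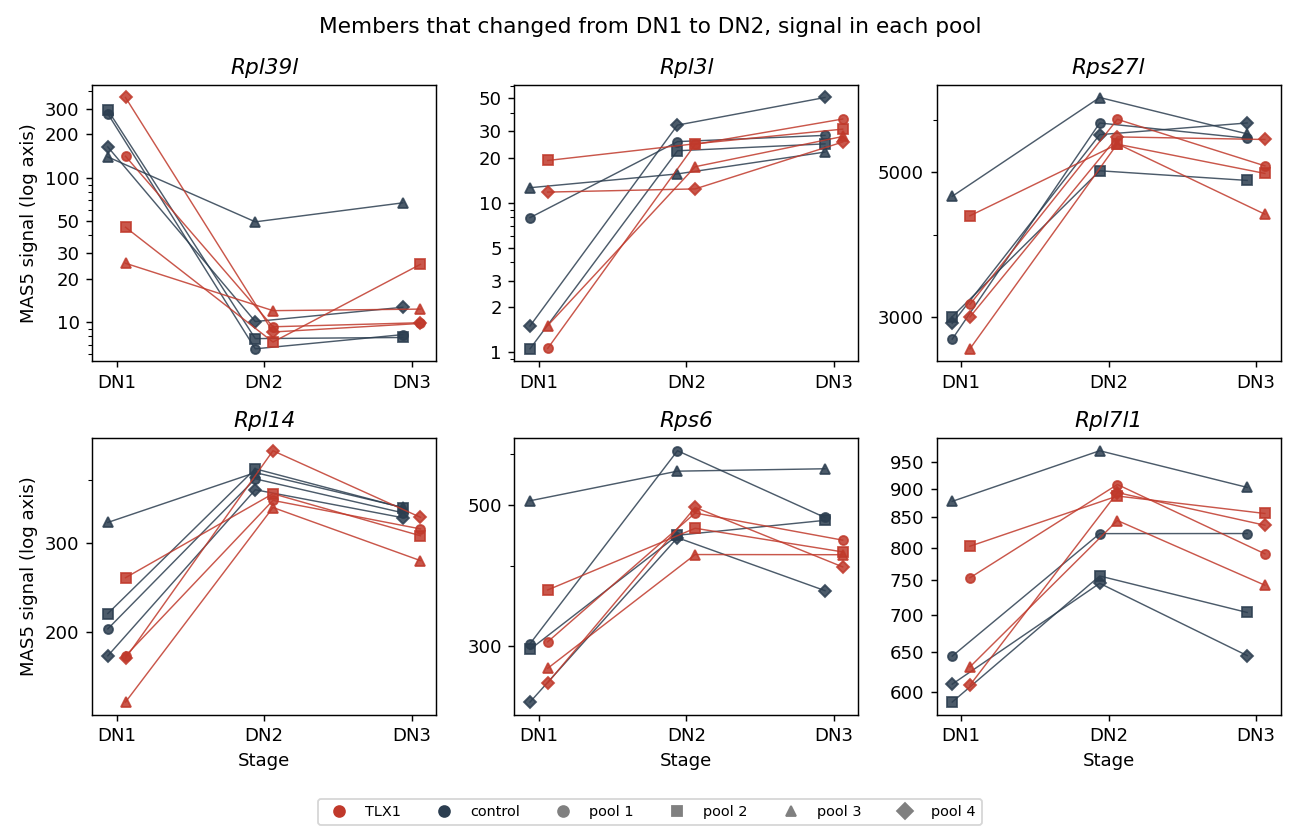
MAS5 signal (log axis) of 6 members that changed from DN1 to DN2 in each pool, with 1 line per pool over the 3 stages, coloured by genotype. *Rpl39l* falls and the other 5 rise in all 8 pools, and control pool 3 (dark triangles) is highest at DN1 for *Rps27l*, *Rpl14*, *Rps6* and *Rpl7l1*.

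In each of the 6 rising genes but *Rps19*, the pools with the least NK and myeloid signal at DN1 had the highest DN1 signals of their genotypes. Control pool 3 (NK sum 13657, myeloid sum 8898) and TLX1 pool 2 (17363 and 13568) had the highest DN1 signals of their genotypes for *Rps27l*, *Rpl14*, *Rps6* and *Rpl7l1*. The same pools were highest for *Rpl3l*, at the very low signals of 12.6 and 19.2. *Rps19* went the other way, with control pool 3 the lowest control pool at DN1 (5473, others 6975 to 8957). What part the other cells of DN1 have in these rises was not tested. Without those 2 pools *Rps27l*, *Rpl14*, *Rps6*, *Rpl7l1* and *Rpl3l* still passed. Members called lower went from 2 to 6 of the 44, but the share of all probe sets was counted only with every pool in the fit (31.6% lower).

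Several members gave unlike answers through different probe sets. Of the 45 members, 23 have more than 1 probe set of their own, 78 in all. *Rps3*, whose protein also acts in DNA repair, differed by -0.033 from DN1 to DN2 through its brightest probe set (mean signal 7319) and by 1.01 ± 0.12 through a dim one (mean signal 454). *Rpl22* gave -0.0062 and 0.026 through bright probe sets and 0.82 ± 0.13 through a dim one (mean signal 725). *Rps24* gave -0.077, -0.10, -0.091 and -0.32 through 4 bright probe sets and 0.53 and 1.42 through 2 dim ones. *Rps20* gave 0.0012 and 0.030 against 1.35 and 1.37, and *Rps9* gave 0.059 through its brightest probe set and -0.077 and 0.48 through others. *Rpl41* gave -0.097 through its brightest probe set and 0.41 ± 0.14 through a dim one, both from DN1 to DN3.

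Of the 18 tested probe sets of members below a mean signal of 2000 that were not a gene's brightest, 9 were higher at DN2 and 0 were lower, with a median of 0.21. Of all 25983 probe sets below that signal, 28.3% were higher and 32.2% lower. At or above it, the 33 further member probe sets had 3 higher and 1 lower. The choice of the brightest probe set therefore set the value for these genes. The probe sets of 1 gene share its RNA and are not replicates, and which transcripts the dim ones detect was not tested.

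**Figure D4:**
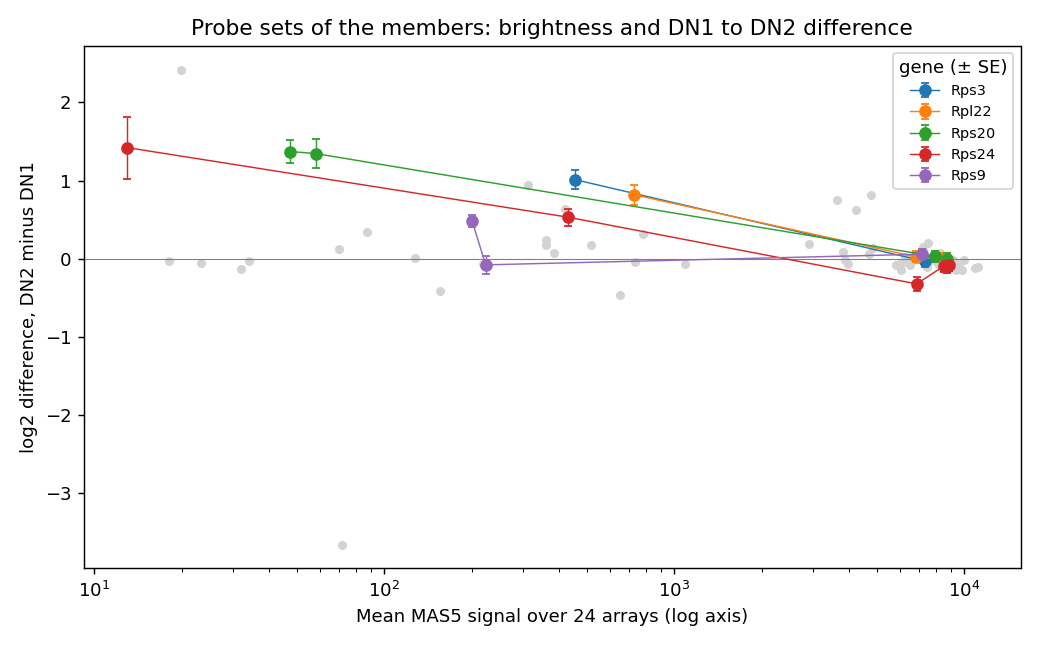
Mean signal over 24 arrays (horizontal, log axis) against the log2 difference between DN2 and DN1 for each tested probe set of the members (grey), with the probe sets of *Rps3*, *Rpl22*, *Rps20*, *Rps24* and *Rps9* joined by gene (± standard error). Bright probe sets of these genes lie near 0 except 1 of *Rps24* at -0.32, and a dim probe set of each lies between 0.48 and 1.42.

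From DN2 to DN3, no member passed the test as deposited, where 8.04% of all probe sets were higher and 4.83% lower by limma. At an unadjusted p under 0.05 there were 3 members, *Rps27* (0.53 ± 0.20), *Rpl14* (-0.27 ± 0.10) and *Rps25* (-0.14 ± 0.06), against 30% of all probe sets, and their adjusted p-values were 0.089, 0.086 and 0.10. *Rps27* signals were 88.7 to 161 at DN2 and 84.8 to 426 at DN3, with control pool 2 highest, and *Rpl14* was lower in all 8 pools, at 277 to 353 at DN3. Other members at the ends were *Rpl3l* (0.50), *Rpl39l* (0.40), *Rpl27a* (0.17) and *Rpl12* (0.14), and *Rpl39* (-0.16), *Rpl22l1* (-0.15) and *Rps6* (-0.14). The median of the members was -0.059 and 37 of 44 were negative, against a median of 0.075 and 38.8% negative over all probe sets. After median centring the median was -0.21 with 0 higher and 4 lower (*Rpl14*, *Rpl22l1*, *Rps25* and *Rpl7l1*), where 2.75% of probe sets were higher and 11.6% lower. With quantile normalization, which can show little of a shift of the whole family, the median was 0.0038.

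Across the whole path from DN1 to DN3, 7 members were higher and 4 lower, where 30.7% of all probe sets were higher and 25.4% lower. *Rpl3l* (2.92 ± 0.54), *Rps27l* (0.69 ± 0.09), *Rpl14* (0.68 ± 0.10), *Rps6* (0.50 ± 0.08), *Rpl12* (0.32 ± 0.08), *Rps19* (0.20 ± 0.07) and *Rpl7l1* (0.20 ± 0.06) were higher. *Rpl39l* (-3.25 ± 0.51), *Rpl37a* (-0.21 ± 0.09), *Rpl13a* (-0.20 ± 0.08) and *Rps25* (-0.19 ± 0.06) were lower. *Rpl27a* was next in size among the lower values (-0.30 ± 0.17) and did not pass (adjusted p = 0.15). *Rpl37a* (adjusted p = 0.049) and *Rpl13a* (adjusted p = 0.047) stood at the edge, and both calls were lost when any pool but control pool 3 was left out. The call of *Rps19* was lost without control pool 1, control pool 4, TLX1 pool 1 or TLX1 pool 4. After median centring 9 members were higher and 1, *Rpl39l*, was lower, where 42.5% of probe sets were higher and 17.9% lower. This comparison shares its arrays with the 2 above.

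Other genes of the translation apparatus were counted beside the ribosomal proteins, as deposited unless said, where 28.9% of all probe sets were higher and 31.6% lower at DN2. Of 76 genes of the mitochondrial ribosome, which translates the mRNA of that organelle, 64 were higher at DN2 than at DN1 and 5 lower (median 0.40). Of 25 ribosome assembly genes 18 were higher and 0 lower (median 0.44), among them *Wdr12* (1.46 ± 0.19), *Gnl3* (0.73 ± 0.09) and *Dkc1* (0.70 ± 0.11), which act in the nucleolus. Of 13 regulators of ribosome supply 7 were higher and 1 lower, and *Myc*, which drives ribosome production, rose by 0.74 ± 0.13. Of 13 translation factors and other genes with TOP mRNAs 4 were higher and 0 lower, *Eif4b* (0.39 ± 0.07), *Npm1* (0.35 ± 0.07), *Btf3* and *Naca*. None of the 4 measured ribosomal proteins with other names (*Rplp0*, *Rplp2*, *Rpsa* and *Fau*) passed, with values of -0.14 to 0.043. After median centring 47.3% of all probe sets were higher and 16.7% lower. By that scaling 69 of the 76 mitochondrial, 23 of the 25 assembly, 12 of the 13 regulator and 11 of the 13 translation genes were higher, beside 38 of the 44 members. Whether these lists differ from the ribosomal proteins beyond their counts was not tested. The 106 tested probe sets that list a ribosomal protein gene with others were like the members, with 6 higher and 4 lower and a median of -0.033.

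Between TLX1 and control thymocytes, no member passed the test at any stage. By limma the shares of all probe sets that passed were 0.0037%, 0.0037% and 0.0185% for DN1, DN2 and DN3. At an unadjusted p under 0.05 there were 0 members at DN1, 1 at DN2 and 4 at DN3, where 1.72%, 3.53% and 6.02% of all probe sets passed. Most member values were negative as deposited, 38, 42 and 40 of the 44, with medians of -0.20, -0.19 and -0.31 at DN1, DN2 and DN3, while the medians of all probe sets were 0.0081, -0.017 and 0.0090. After median centring the medians were -0.22, -0.086 and -0.33, and with quantile normalization they were -0.0097, -0.023 and 0.0043, but that scaling gives the brightest ranks of every array the same values, and 32 of the 45 members lie there, so it can show little of a shift of the whole family. The standard deviation of the members' median between pools of a genotype was 0.25, 0.10 and 0.20. At DN1 the median depended on single pools, at -0.326 without control pool 3, -0.127 without TLX1 pool 1, -0.135 without control pool 2 and -0.134 without control pool 4.

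As deposited, 7 members at DN2 had all 4 TLX1 signals below all 4 control signals (*Rpl38*, *Rps28*, *Rpl37a*, *Rpl4*, *Rpl19*, *Rps14* and *Rpl39*) and 0 the reverse, where 1.35% of all probe sets did not overlap in the lower and 1.39% in the higher direction. At DN3 *Rpl38* and *Rpl7* did not overlap, in the lower direction, and 0 in the higher, where 1.25% and 2.64% of all probe sets did. At DN1 0 members were apart in either direction, against 0.529% and 0.725%. *Rpl38*, which was apart at both stages, read 9773, 10577, 10134 and 10284 in TLX1 and 11878, 11543, 12565 and 10909 in control pools at DN2. At DN3 it read 8987, 9915, 8151 and 10294, and 11265, 13100, 10323 and 12658, a difference of -0.34 ± 0.14 (adjusted p = 0.82). The members are read on the same arrays, so an array that is high is high for most of them.

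None of the members of smallest p at each stage passed the test. At DN1 these were *Rpl39l* (-1.25 ± 0.76), *Rpl37a* (-0.30 ± 0.22), *Rpl37* (-0.40 ± 0.30), *Rpl35* (-0.29 ± 0.24) and *Rpl41* (-0.28 ± 0.23). At DN2 they were *Rpl39* (-0.49 ± 0.21), *Rpl37a* (-0.25 ± 0.12), *Rps29* (-0.24 ± 0.12), *Rps10* (-0.26 ± 0.14) and *Rps24* (-0.26 ± 0.14), and at DN3 *Rpl38*, *Rpl41* (-0.42 ± 0.17), *Rpl4* (-0.35 ± 0.15), *Rpl7* (-0.28 ± 0.12) and *Rps10* (-0.37 ± 0.17). Their adjusted p-values were at least 0.82. The values of *Rpl22*, the member known from T cell development, were -0.21 (95% interval -0.67 to 0.25), -0.21 (-0.49 to 0.076) and -0.28 (-0.66 to 0.10) at the 3 stages. *Rpl7l1* was positive at each stage, at 0.049, 0.11 and 0.080, and *Rps27l* had -0.013, -0.023 and -0.15, so both lay nearer to 0 than the median of the members.

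*Rpl37* split the TLX1 pools. At DN1 it read 739, 775, 673 and 1530 in TLX1 and 1013, 974, 1141 and 1583 in control pools. At DN2 it read 520, 633, 571 and 1855, and 772, 911, 1554 and 1918, and at DN3 686, 772, 777 and 1472, and 1115, 982, 1388 and 1689. TLX1 pool 4 lay apart from TLX1 pools 1 to 3 at all 3 stages, and control pool 4 was the highest control pool at each. *Rpl27a* at DN3 was the largest positive value, 0.74 ± 0.37, with 882, 839, 631 and 745 in TLX1 and 269, 881, 307 and 617 in control pools.

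**Figure D5:**
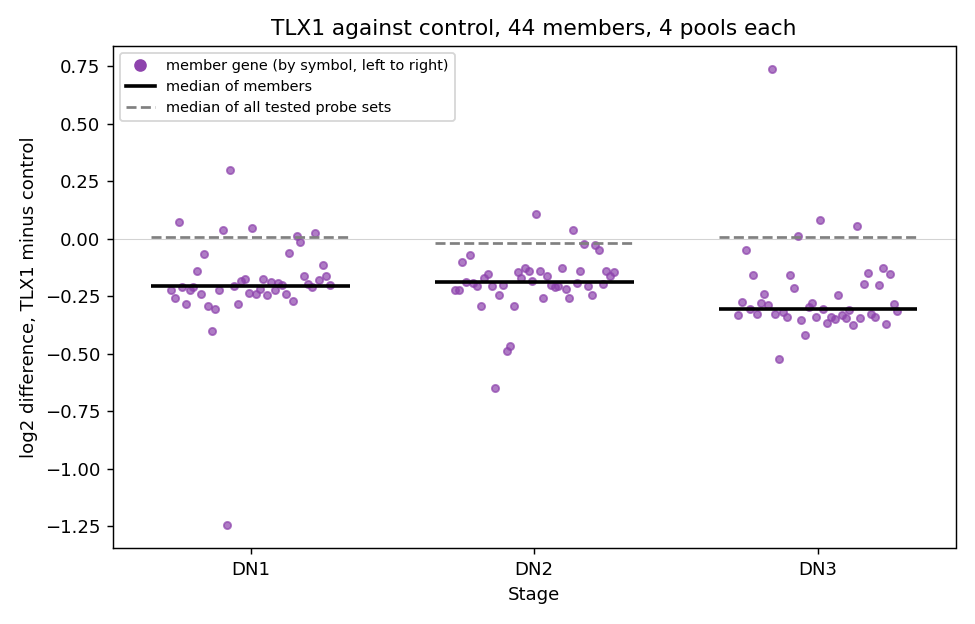
Difference in log2 signal between TLX1 and control thymocytes for each of the 44 tested members (points, in order of symbol) at DN1, DN2 and DN3, with the median of the members (solid line) and of all tested probe sets (dashed line). As deposited most points lie below 0, around medians of -0.20, -0.19 and -0.31; with quantile normalization these medians are -0.0097, -0.023 and 0.0043.

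A measure of RNA integrity moved with the genotype and with the stage. The log2 ratio of 3′ to 5′ signal, averaged over *Actb* and *Gapdh*, rises as RNA or its copies are shortened. In DN1 cells it was 0.057 ± 0.075 (SD, n = 4) in TLX1 and 0.26 ± 0.16 in control pools. In DN2 cells it was 0.22 ± 0.11 and 0.52 ± 0.33, and in DN3 cells, where the genotypes did not overlap, 0.18 ± 0.11 and 0.53 ± 0.030. Control pool 3 had 0.99 at DN2, where the other control pools had 0.24 to 0.44. Within a genotype, the pools ranked alike by this ratio and by the members' median at DN1 and at DN2, but not at DN3. The part of this ratio in the lower member signals and in the stage differences was not tested. The translation factors and TOP genes had the same sign as most members as deposited, with all 13 negative at each stage (medians of -0.16, -0.13 and -0.22) and 0 passing, and the 4 ribosomal proteins with other names had medians of -0.24, -0.19 and -0.35. The mitochondrial ribosomal genes had medians of -0.093, 0.046 and -0.054.

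The change between stages was also compared between the genotypes. By limma 0 members passed for DN1 to DN2, DN2 to DN3 or DN1 to DN3, as did 0% of all probe sets. At an unadjusted p under 0.05 there were 0, 1 and 1 members, against 3.6%, 2.89% and 3.23% of all probe sets. The 1 member was *Rpl27a*, which changed from DN2 to DN3 by 0.62 ± 0.079 (SD, n = 4) in TLX1 and by -0.28 ± 0.53 in control pools, a difference of 0.89 (unadjusted p = 0.0029, adjusted p = 1.0). The medians of the members were 0.020, -0.12 and -0.11.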

How the data were processed

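The intensity values are MAS5 signals on a linear scale which the authors deposited for 24 mouse arrays and, per the submitters' processing notes, computed in Affymetrix Expression Console; the 2% trimmed mean of each array was checked to be 150. The background reduction and detection flags named in the methods are not used here. Signals under 1 were set to 1 and log2 transformed. Of 45037 probe sets, the 60% with the highest mean log2 signal (27022) were tested with limma (version 3.58.1) in R (version 4.3.3) and Benjamini-Hochberg adjustment, an adjusted p under 0.05 being a call. Stages were compared with the pool as a fixed block, TLX1 and control on the 8 arrays of a stage, and the difference between genotypes as an interaction. A single value of 4 pools against 4 could reach an exact permutation p of 0.0286 at the least. The fits were tested on simulated data. Probe sets were named from the platform annotation, where 34945 list 1 gene, 932 several and 9160 none. Genes named in the text are the 5 highest and 5 lowest of each stage step (3 from DN1 to DN3), the 5 of smallest p per stage for TLX1, paralogs with their parents, a fixed set, and genes whose probe sets differ in sign by over 0.5. Other genes were named after their values were seen. Members, lists and alternatives were chosen with earlier results of these data known. The alternatives are median centring, quantile normalization, no or a stricter filter (40%), an offset of 32, other probe set choices, other blocks, sex, the methods' unpaired test and leaving out pools. The precision of every value is limited by the number of pools, and the labels give 6 to 8 weeks of age where the methods give a wider range.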

Additional observations from a re-analysis of the deposited data

Results flagged for a closer look

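Among 186 sets of 4 pools (the genes chosen by the naming rule and the median of the members, at 3 stages in 2 genotypes), 11 held a pool far from the other 3. That is close to the share of about 1 in 20 given by chance. *Rpl37*, a large subunit protein gene, read 1530, 1855 and 1472 in TLX1 pool 4 at DN1, DN2 and DN3, where TLX1 pools 1 to 3 read 673 to 775, 520 to 633 and 686 to 777. The same pool was high at DN2 for *Rps10* (10090, others 8151 to 8190) and *Rps20* (9796, others 7398 to 7651).

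*Rpl39l*, the paralog otherwise dim after DN1, read 49.6 in control pool 3 at DN2 (others 6.54 to 10.1) and 67.2 at DN3 (others 7.84 to 12.7), and 25.2 in TLX1 pool 2 at DN3 (others 9.81 to 12.3). Control pool 3 also read high for *Rps27l* at DN1 (4585, others 2772 to 3000). These are the pools with many cells outside their gates, and the part of those cells was not tested. Control pool 2 at DN2 was high for *Rpl27a* (919, others 431 to 498) and low for *Rps14* (8895, others 9200 to 9261).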

How the results depend on the processing

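The 8 calls from DN1 to DN2 kept their direction in the settings that could give a value. *Rpl39l*, *Rpl3l*, *Rpl14* and *Rps27l* also kept their call in all of them, *Rps6* and *Rpl7l1* lost it with the median over probe sets, *Rpl27a* lost it in 7 of 18 and *Rps19* in 8 of 18. Counts of calls moved past 1.5 times in 5 cases with a scaling and in 23 with other settings. With median centring, 38 members were higher and 1 lower from DN1 to DN2 (median 0.322), 4 were lower from DN2 to DN3, and 1 was lower from DN1 to DN3 (median 0.110); the TLX1 median at DN2 was -0.0860. With quantile normalization the TLX1 medians were -0.0232 at DN2 and 0.00431 at DN3. The number lower from DN1 to DN2 was 1 with the stricter filter and 1 with no replicate block, and 6 without the 2 pools with many cells outside the gates. Without those pools 1 member was lower from DN2 to DN3 and 7 from DN1 to DN3. From DN1 to DN3, 2 were lower with quantile normalization, no filter, the median over probe sets, no x_at or s_at probe sets, or a random block, and with no replicate block 4 were higher and 1 lower. Shares of all probe sets were counted only for the main fit and after median centring, so counts with other settings have no share beside them.

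Leaving out 1 pool gave 1 to 5 members lower from DN1 to DN2, 0 to 1 higher and 0 to 1 lower from DN2 to DN3, and 2 to 6 lower from DN1 to DN3. It moved *Rpl39* from -0.116 to 0.112, *Rpl7* from -0.0775 to 0.0155 and *Rpl22* from -0.0706 to 0.0424 (DN1 to DN2). Of the settings tried on single genes, 863 values stayed on their side, 57 lost and 12 gained a call, and 24 changed sign. From DN1 to DN2 centring gave 0.196 for *Rpl37a*, 0.200 for *Rpl13a*, 0.319 for *Rpl7* and 0.338 for *Rpl22*, quantile normalization 0.00963 and 0.0359 for *Rpl7* and *Rpl22*, the median over probe sets 0.00602 and 0.0265, no x_at or s_at probe sets 0.0265 for *Rpl22*, and leaving out the 2 pools -0.0537 for *Rpl39*. From DN2 to DN3 *Rpl12* was -0.00994 with centring and *Rps6* 0.0779 with the median over probe sets. From DN1 to DN3 *Rps25* was 0.0012 with centring. For TLX1 at DN3 quantile normalization gave 0.00564 for *Rpl38* and 0.0465 for *Rpl7*. Beside the scalings' own construction and the fewer pools, the cause was not tested.

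The labels do not state that replicate numbers pair the pools of the genotypes. Correlations between the 2 pools of a number were -0.34 to 0.48. Those of number 4 were the highest at each stage, at 0.48, 0.40 and 0.37 at DN1, DN2 and DN3. With the replicate number as a block the TLX1 medians were -0.204, -0.188 and -0.305 at DN1, DN2 and DN3, with 0 calls. Several members rest on probe sets near the floor of the signal, where small differences are not detectable with 4 pools a group.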
